A study of Mus musculus with 48 samples.

Results

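Corticosterone was set against its ethanol vehicle in the livers of mice eating the control diet. The samples were chosen by the treatment and diet in their labels, which put 14 libraries in the corticosterone group and 10 in the vehicle group, 24 of the 48 libraries of the series, and all measured genes were compared. The corticosterone group held male C57BL6J mice whose drinking water contained corticosterone at 100 ug/ml for 2 weeks. The vehicle group held male C57BL6J mice whose water contained 1% ethanol for the same time. Neither group received atglistatin, an inhibitor of the lipase ATGL, which the other 24 mice (14 on corticosterone and 10 on vehicle) ate in their food. Whole liver was powdered and its RNA read by QuantSeq, which sequences the 3′ ends of polyadenylated transcripts, so that a gene's count follows the number of its transcripts and not their length. The age of the mice is not given in the sources used here. Glucose and insulin differ from library to library, and each library was taken as 1 mouse.

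Corticosterone is the main glucocorticoid of rodents. It binds the glucocorticoid receptor, which moves to the nucleus and activates some genes through its DNA element while it represses others, many of them driven by inflammatory and interferon signals. In liver, glucocorticoids are known for raising glucose output and amino acid breakdown and for changing lipid storage, drug metabolism and the daily rhythm of transcription. Long exposure is known to bring insulin resistance, and the immune cells of many tissues are sensitive to the hormone.

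Fed glucose was between 131 and 407 (median 265) in the corticosterone mice and between 113 and 146 (median 134) in the vehicle mice, in the units of the labels, which do not name them. The means were 244 ± 79.9 (SD, n = 14) with corticosterone and 132 ± 10.9 (SD, n = 10) with vehicle, a difference of 111 (2-sided permutation test with 100000 resamples, p = 0.00032). The groups overlapped, since 10 of the 14 corticosterone mice exceeded the highest vehicle value. Insulin was between 9.31 and 39.8 (median 37.8) with corticosterone and between 1.19 and 3.46 (median 2.39) with vehicle, and these ranges did not overlap. Its means were 31.7 ± 10.6 and 2.42 ± 0.705 (SD), a 13.1-fold ratio (2-sided permutation test, p = 1e-05, the smallest that 100000 resamples can give). Of the 14 corticosterone insulin values, 8 lay between 37.5 and 39.8. The labels call 9 of the 14 corticosterone mice diabetic, with glucose from 254 to 407, and 5 nondiabetic, with glucose from 131 to 242. No vehicle mouse was labelled diabetic.

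**Figure D1:**
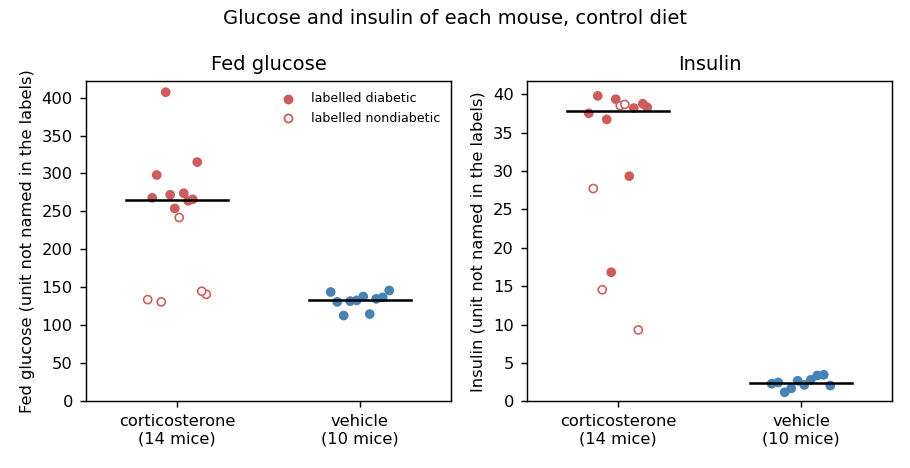
Fed glucose (left panel) and insulin (right panel) of each mouse, in the units of the labels, which do not name them, with corticosterone mice left of vehicle mice. Points are mice, bars are medians, and open corticosterone points are mice labelled nondiabetic. The insulin ranges do not overlap (9.31 to 39.8 with corticosterone, 1.19 to 3.46 with vehicle).

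Total counts ran from 8417531 to 19548520 per corticosterone library and from 7449109 to 17246286 per vehicle library. No 2 libraries looked like the same library deposited again: between any pair, chi-square over its degrees of freedom was at least 8.87 within the corticosterone group and 6.21 within the vehicle group. The first principal component of the 24 libraries, computed only on the genes of highest variance, held 60.3% of their variance. It separated all libraries by treatment. CPM are a gene's counts per 1e+06 counts of the genes tested, with that library total adjusted by edgeR's TMM scaling factor. The summed level of 10 hepatocyte markers was 97774 to 142947 CPM with corticosterone and 77236 to 119962 CPM with vehicle, as for a liver sample. Cpa1, which encodes a digestive enzyme of the pancreas, stood at 332 CPM in corticosterone replicate 30 and at 67.5, 32.6 and 25.6 CPM in vehicle replicates 9, 10 and 15. Genes of this report whose call changes without these 4 libraries, and without 2 vehicle libraries of the atglistatin diet above 20 CPM, are named below.

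In edgeR's quasi-likelihood test with Benjamini-Hochberg adjustment over 12688 genes, 5606 genes passed an adjusted p of at most 0.05, which is 44.2% of those tested. Of these, 2858 were higher (22.5%) and 2748 lower (21.7%) with corticosterone. At least 2-fold changes were found for 384 higher genes (3.03%) and 759 lower genes (5.98%). Changes of at least 4-fold were found for 119 higher and 178 lower genes, and changes of at least 16-fold for 35 higher and 13 lower genes. The 14 corticosterone values all lay above the 10 vehicle values for 340 of the genes tested (2.68%) and all below them for 435 (3.43%). The median log2 fold change over all genes was 0.01. The counts of each gene list given from here on stand against these shares of all genes, 22.5% higher and 21.7% lower, and were not tested as sets. In the text that follows, values in parentheses after a gene are its log2 fold change, corticosterone over vehicle, ± SE, levels are in CPM, and a gene is said to have risen or fallen only where its adjusted p passed.

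Genes known to be activated by the receptor itself rose together. Of 28 listed receptor targets, 19 rose, 0 fell and 9 did not pass, against the 22.5% of all genes that rose, and their median log2 fold change was 1.22. Fkbp5 (ENSMUSG00000024222, chromosome 17, 28399094 to 28517527, GRCm38), the co-chaperone that lowers the receptor's affinity for hormone, had 173 to 447 CPM (median 308) in the corticosterone libraries and 5.58 to 17.2 CPM (median 8.06) in the vehicle libraries. The lowest corticosterone library was far above the highest vehicle library, and the change (5.02 ± 0.27, adjusted p = 3.15e-20) was 32.5-fold.
The cell cycle inhibitor gene Cdkn1a had 92.02 to 492 CPM (median 289) with corticosterone and 5.87 to 30.5 CPM (median 14.4) with vehicle (4.15 ± 0.29). Lpin1, whose product lipin 1 makes diacylglycerol and assists transcription of fat-burning genes, had 197 to 1353 CPM (median 844) with corticosterone and 37.1 to 319 CPM (median 58.2) with vehicle, so its groups overlapped (2.78 ± 0.40). Gadd45b, a stress-response gene, rose to a median of 11.7 CPM with corticosterone, against 0.905 CPM with vehicle (4.03 ± 0.45). Every corticosterone library exceeded every vehicle library for Gadd45b and Cdkn1a. Lcn2, which encodes the siderophore-binding protein lipocalin 2, varied widely, with 21.9 to 336 CPM (median 92.98) under corticosterone and 1.09 to 15.8 CPM (median 1.99) under vehicle (4.87 ± 0.68), and its groups did not overlap.
Other textbook targets in liver gave mixed calls. Tat, the tyrosine aminotransferase long used to assay the hormone, had 209 to 1473 CPM (median 469) with corticosterone and 98.5 to 851 CPM (median 429) with vehicle (0.54 ± 0.27, adjusted p = 0.105), with wide overlap. It passed when vehicle replicate 12, the library with its highest vehicle level, was left out (log2 fold change 0.74, adjusted p = 0.0257). Tdo2, the tryptophan dioxygenase, rose (0.81 ± 0.12). The metallothionein genes Mt1 (2.46 ± 0.48) and Mt2 (3.57 ± 0.55), which encode metal-binding proteins, rose, and Mt2 had 477 to 1179 CPM (median 681) with corticosterone and 3.99 to 257 CPM (median 29.8) with vehicle. The Mt2 value moved to log2 fold change 4.25, adjusted p = 1.09e-08 without vehicle replicate 10, which held its highest vehicle level.

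Genes that handle the hormone itself were called in both directions. Nr3c1, the receptor, fell to 30.8 to 44.4 CPM (median 40.4) with corticosterone, against 46.4 to 58.5 CPM (median 52.02) with vehicle (-0.42 ± 0.07), a small change whose groups did not overlap. Hsd11b1, whose enzyme regenerates active glucocorticoid inside the hepatocyte, rose (0.57 ± 0.12). Serpina6, the gene of the plasma carrier of corticosterone, had 15.1 to 39.1 CPM (median 24.9) with corticosterone and 68.98 to 140.4 CPM (median 103) with vehicle (-2.12 ± 0.26), and each corticosterone library lay below each vehicle library. In the list of steroid metabolism and binding, 5 of 17 tested genes rose, 9 fell and 3 did not pass (median -0.42). Cyp17a1, which makes androgen precursors, rose to 74.1 to 980.3 CPM (median 281) with corticosterone, against 5.78 to 54.3 CPM (median 9.28) with vehicle (4.21 ± 0.50). Akr1c6 (-1.002 ± 0.142) and Hsd17b6 (-2.46 ± 0.39), which encode hydroxysteroid dehydrogenases, fell, and Hsd17b6 had 6.52 to 48.05 CPM (median 23.6) with corticosterone and 93.5 to 189 CPM (median 141) with vehicle.

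**Figure D2:**
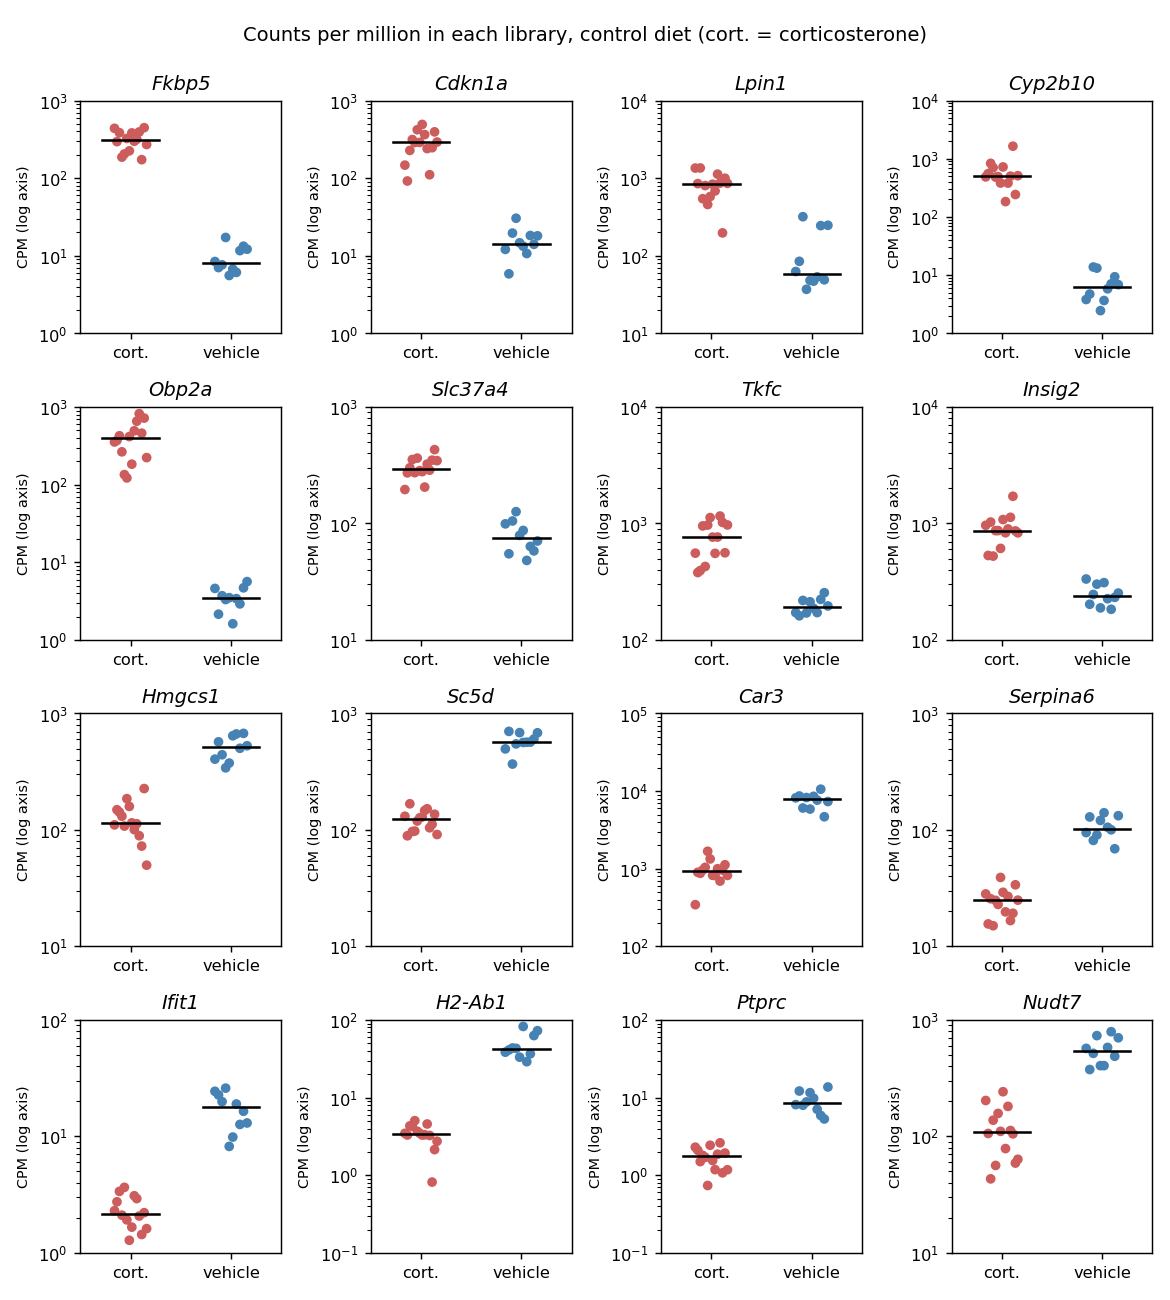
CPM of 16 genes in each library on a log axis, with corticosterone libraries left of vehicle libraries in each panel and bars at the medians. The upper 8 genes rose and the lower 8 fell, and apart from Lpin1 the groups do not overlap in any panel.

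The highest fold changes belonged to genes that vehicle livers hardly expressed. Sult1e1, the estrogen sulfotransferase, had 6.67 to 362 CPM (median 64.9) with corticosterone and 0 to 0.341 CPM (median 0.0754) with vehicle (9.76 ± 1.16). The 10 vehicle libraries together held 15 reads of Sult1e1, so its fold change rests on few vehicle reads. Obp2a (ENSMUSG00000062061), of the odorant-binding lipocalins, was steadier, with 122 to 822 CPM (median 394) under corticosterone and 1.62 to 5.64 CPM (median 3.46) under vehicle (6.81 ± 0.45).
The M-band protein gene Myom3 (5.91 ± 0.32), the small GTPase gene Rasl10b (5.57 ± 0.39), the phosphate transporter gene Slc34a2 (4.45 ± 0.51) and the G protein regulator gene Rgs16 (4.38 ± 0.65) were also among the 20 highest. Fam107a (6.98 ± 0.55), an actin-associated stress gene, moved to log2 fold change 8.11, adjusted p = 6.31e-15 without vehicle replicate 12, which held most of its vehicle reads. Scara5, a ferritin receptor gene, had 9.44 to 40.98 CPM (median 19.1) with corticosterone and 0.448 to 7.32 CPM (median 1.30) with vehicle (3.33 ± 0.37). Rrm2, the ribonucleotide reductase subunit, rose to 8.20 to 24.2 CPM (median 17.7) with corticosterone, against 1.16 to 4.10 CPM (median 1.92) with vehicle (3.09 ± 0.21). Its groups did not overlap.
Among the 20 lowest outside the immune genes, Depp1, a FoxO-responsive autophagy gene, had 6.53 to 29.3 CPM (median 16.4) with corticosterone and 53.8 to 218 CPM (median 101) with vehicle (-2.82 ± 0.29). The phosphodiesterase gene Pde4b, which breaks down cyclic AMP, had 3.84 to 9.07 CPM (median 7.12) with corticosterone and 14.7 to 62.6 CPM (median 38.4) with vehicle (-2.50 ± 0.20). Sort1, the sorting receptor sortilin, had 0.844 to 3.71 CPM (median 2.13) with corticosterone and 10.2 to 16.1 CPM (median 14.9) with vehicle (-2.62 ± 0.17). None of these groups overlapped. The transcript 1810008I18Rik, of no described role, fell without overlap, with 12.4 to 27.9 CPM (median 18.97) under corticosterone and 125 to 297 CPM (median 171) under vehicle (-3.24 ± 0.13).

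By difference in CPM the largest shifts were in secreted and metabolic transcripts. Albumin (Alb) gained the most, with 67977 to 108774 CPM (median 90442) under corticosterone and 49774 to 79230.0 CPM (median 70963) under vehicle (0.34 ± 0.12, adjusted p = 0.0148), and the groups overlapped. The protease inhibitor gene Serpina3k had 12382 to 21789 CPM (median 17661) with corticosterone and 5572 to 12018 CPM (median 7683) with vehicle (1.12 ± 0.12). Its groups were fully apart. The largest losses included Car3, the carbonic anhydrase of slow muscle and liver, with 345 to 1680.3 CPM (median 930.1) under corticosterone and 4678 to 10592 CPM (median 7926) under vehicle (-2.99 ± 0.28), without overlap. Apoe, the apolipoprotein of remnant particles, fell slightly (-0.28 ± 0.10), and Serpina1e fell (-0.89 ± 0.32), though it lost its call without vehicle replicate 9 (adjusted p = 0.0548). Serpina1 and Serpina3 genes are near-identical copies whose reads could be split between them, so their values are uncertain.

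Most genes of fructose use and glycolysis were higher with corticosterone. Of 26 listed glycolysis, fructolysis and glucose-sensing genes, 16 rose, 4 fell and 6 did not pass (median 0.72). Khk, the fructose kinase, had 415 to 871 CPM (median 562) with corticosterone and 155 to 328 CPM (median 205) with vehicle (1.44 ± 0.16). Tkfc, the triokinase that takes up the next product of fructose, had 379 to 1158 CPM (median 764) with corticosterone and 161 to 255 CPM (median 191) with vehicle (1.94 ± 0.17). Both rose without overlap between groups. Pklr, the liver pyruvate kinase, had 125 to 488 CPM (median 276) with corticosterone and 35.1 to 97.4 CPM (median 74.4) with vehicle (2.06 ± 0.24). Pfkfb1 (1.11 ± 0.14), which sets fructose 2,6-bisphosphate, and Gapdh (1.12 ± 0.14) rose too.
Of 17 genes of gluconeogenesis and glucose output, 8 rose, 0 fell and 9 did not pass (median 0.25). Slc37a4, the transporter that brings glucose 6-phosphate to its phosphatase, had 196 to 431 CPM (median 294) with corticosterone and 48.2 to 126 CPM (median 74.9) with vehicle (1.94 ± 0.14), without overlap. Pcx, the pyruvate carboxylase that starts the pathway, rose (0.87 ± 0.12). Pck1, the carboxykinase, had 345 to 2367 CPM (median 1407) with corticosterone and 496 to 1829 CPM (median 1135) with vehicle (0.16 ± 0.25, adjusted p = 0.639). G6pc, the phosphatase itself, had 399.8 to 971 CPM (median 601) with corticosterone and 241 to 829 CPM (median 539) with vehicle (0.33 ± 0.23, adjusted p = 0.248), though it passed in limma voom with sample weights (log2 fold change 0.56, adjusted p = 0.0294). For both, the vehicle range covered most of the corticosterone range.
Of 16 glycogen genes, 6 rose, 4 fell and 6 did not pass (median 0.02). The liver glycogen synthase gene Gys2 (0.93 ± 0.13), the branching enzyme gene Gbe1 (0.79 ± 0.09), the phosphorylase gene Pygl (0.58 ± 0.10) and the phosphatase targeting subunit gene Ppp1r3b (1.01 ± 0.18) rose. Ppp1r3g, another targeting subunit, stood at 0 to 0.270 CPM (median 0.0783) with corticosterone and 0.0743 to 4.98 CPM (median 1.10) with vehicle (-3.99 ± 0.56). Its level was near the detection limit in the corticosterone libraries. Pygb, the brain-type phosphorylase, fell (-1.29 ± 0.18).

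Of 22 listed insulin signalling genes and FoxO targets, 8 rose, 5 fell and 9 did not pass, where 44.2% of all genes were called. Members went both ways (median 0.05), and of those called 1 changed at least 2-fold. Insr, the receptor (-0.12 ± 0.10, adjusted p = 0.331), and Irs2, its adaptor (-0.12 ± 0.24, adjusted p = 0.719), did not pass. The transcription factor gene Foxo1, which insulin signalling keeps out of the nucleus, had 41.5 to 93.8 CPM (median 70.9) with corticosterone and 33.6 to 53.5 CPM (median 43.4) with vehicle (0.70 ± 0.12). The regulatory kinase subunit gene Pik3r1 rose (0.60 ± 0.11) and the growth brake Tsc1 fell (-0.61 ± 0.08). Igfbp1, a FoxO target that insulin lowers, had 24.3 to 236 CPM (median 44.03) with corticosterone and 24.6 to 870.3 CPM (median 118) with vehicle (-1.69 ± 0.52, adjusted p = 0.00693). That call rested on vehicle replicate 10, which held 870.3 CPM, and without it the value was log2 fold change -1.02, adjusted p = 0.0935.

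Cholesterol synthesis genes fell almost as a block. Of 28 listed genes of cholesterol synthesis and uptake, 25 fell, 2 rose and 1 did not pass, where 21.7% of all genes fell, and their median log2 fold change was -1.35. At least 2-fold falls were found for 17 of them, and 14 showed no overlap between groups. The pathway is driven by the sterol-sensing factor SREBP2, whose partner NF-Y binds the CCAAT box. Since these genes moved together, their promoters were read for that box (CCAAT on either strand) in the RefSeq windows of GRCm38.p6 that run from 250 bases before to 50 after the start site. It was present in 18 of the 20 listed genes with such a window (90%), against 42.7% of 9649 genes tested. It was also in 14 of 18 clock genes (77.8%), a list in which 1 gene fell, and in 4 of 5 MHC class II genes (80%), and among genes at least 2-fold lower it was in 41% of 519. The sterol element in the form ATCACNCCAC was in 0 of these 20 and in 23 of the 9649. Windows are given for Hmgcs1 at the start of the pathway (chr13:119690101-119690400) and for Sc5d near its end (chr9:42264251-42264550). Another is given for Insig2, the listed gene that rose most (chr1:121332540-121332839). It was picked as the first of the 3 Insig2 windows that holds the box. Each is on the strand of its gene and has the CCAAT box in capitals.
Hmgcs1: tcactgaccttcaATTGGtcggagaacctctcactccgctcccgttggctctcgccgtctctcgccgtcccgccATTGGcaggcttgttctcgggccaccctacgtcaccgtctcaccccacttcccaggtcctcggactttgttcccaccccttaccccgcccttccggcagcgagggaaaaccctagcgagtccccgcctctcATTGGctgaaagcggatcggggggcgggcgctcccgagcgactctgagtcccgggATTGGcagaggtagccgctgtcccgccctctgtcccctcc
Sc5d: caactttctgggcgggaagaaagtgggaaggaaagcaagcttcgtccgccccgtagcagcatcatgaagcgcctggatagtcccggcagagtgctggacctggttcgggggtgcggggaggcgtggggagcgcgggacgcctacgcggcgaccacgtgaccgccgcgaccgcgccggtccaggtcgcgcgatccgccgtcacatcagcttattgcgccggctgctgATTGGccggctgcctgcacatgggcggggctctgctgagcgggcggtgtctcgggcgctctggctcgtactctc
Insig2: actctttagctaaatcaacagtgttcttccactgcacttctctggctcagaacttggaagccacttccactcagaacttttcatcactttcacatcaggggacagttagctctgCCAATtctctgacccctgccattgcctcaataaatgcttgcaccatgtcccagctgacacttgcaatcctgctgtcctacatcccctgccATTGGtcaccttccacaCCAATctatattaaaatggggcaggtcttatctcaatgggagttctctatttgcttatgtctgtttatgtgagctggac
A match is a description of letters and not a measured site. Hmgcs1, which makes HMG-CoA, had 49.8 to 227 CPM (median 114) with corticosterone and 342 to 675 CPM (median 516) with vehicle (-2.04 ± 0.18, adjusted p = 4.41e-13). Pmvk, the phosphomevalonate kinase, had 9.61 to 31.5 CPM (median 20.4) with corticosterone and 42.1 to 76.7 CPM (median 62.3) with vehicle (-1.55 ± 0.15). Sc5d, the lathosterol desaturase, had 89.1 to 168 CPM (median 123) with corticosterone and 368 to 702 CPM (median 567) with vehicle (-2.25 ± 0.11, adjusted p = 9.24e-22). In all 3 the groups did not overlap. Fdft1, the squalene synthase, fell as well (-1.39 ± 0.14). Insig2, which holds SREBP in the endoplasmic reticulum, went the other way, with 525 to 1713 CPM (median 869) under corticosterone and 183 to 334 CPM (median 239) under vehicle (1.88 ± 0.16), all 14 corticosterone libraries lying above all vehicle libraries.

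**Figure D3:**
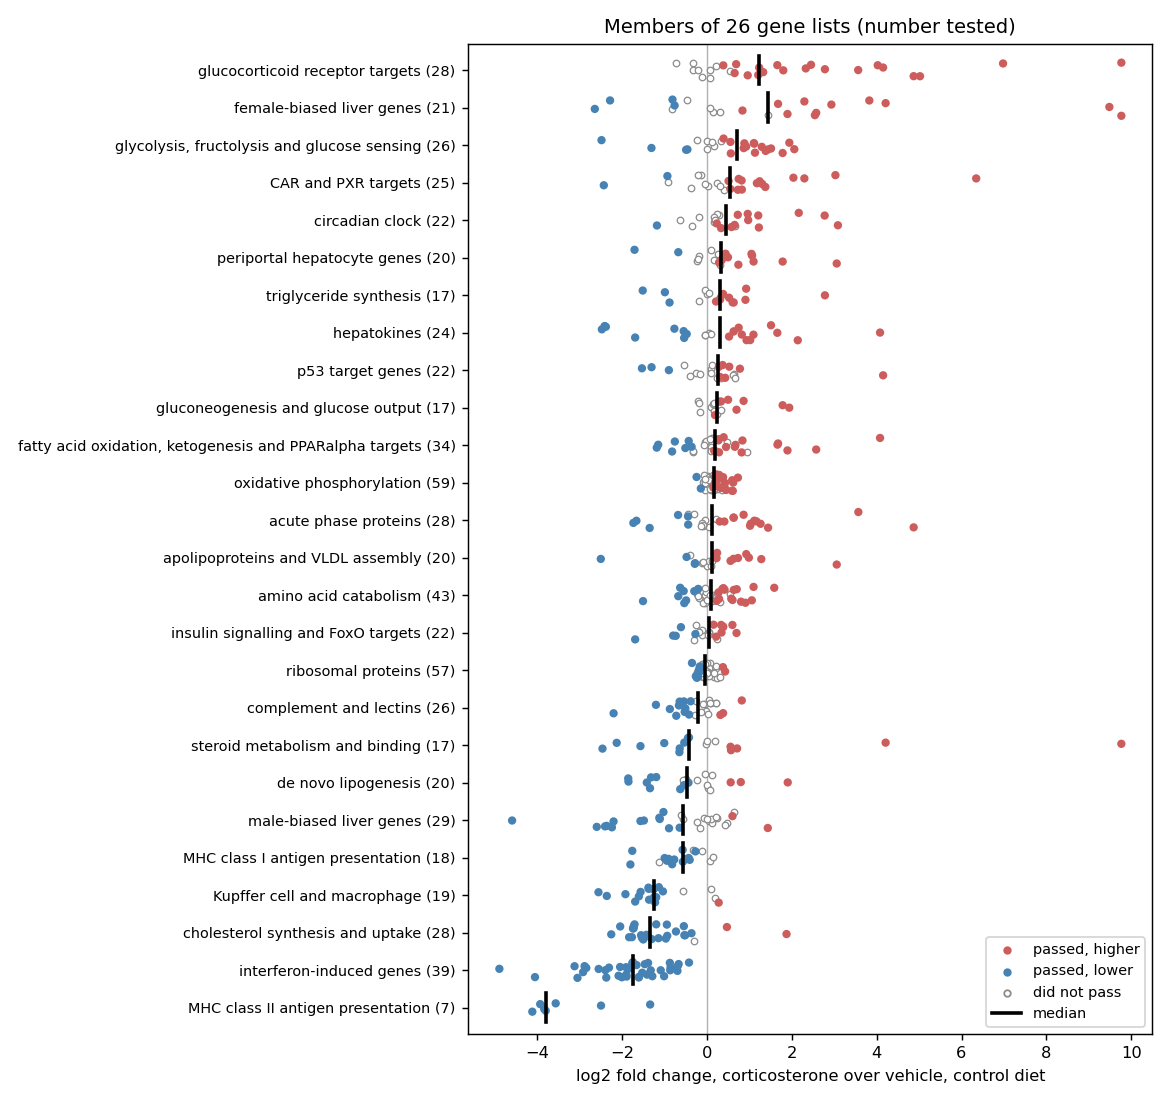
Log2 fold change, corticosterone over vehicle, of every tested member of 26 gene lists, 1 row per list. Filled points passed the test at an adjusted p of at most 0.05, open points did not, and bars are list medians. MHC class II (median -3.79), interferon-induced genes (-1.74) and cholesterol synthesis (-1.35) lie to the left, and receptor targets (1.22) and female-biased genes (1.44) to the right.

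Genes of fatty acid metabolism were called in both directions within each list. Of 20 de novo lipogenesis genes, 3 rose, 9 fell and 8 did not pass (median -0.46). The desaturase gene Scd1 had 437 to 2368 CPM (median 1094) with corticosterone and 1974 to 4370.1 CPM (median 2614) with vehicle (-1.31 ± 0.25). Elovl5, the elongase of polyunsaturated fatty acids, had 94.6 to 213 CPM (median 132) with corticosterone and 343 to 778 CPM (median 469.8) with vehicle (-1.85 ± 0.15), without overlap. The delta-5 desaturase gene Fads1 (-1.34 ± 0.12) and the acetate-activating Acss2 (-1.84 ± 0.16) fell. Fasn, the fatty acid synthase (0.09 ± 0.19, adjusted p = 0.75), and Srebf1, the lipogenic SREBP (-0.23 ± 0.22, adjusted p = 0.417), did not pass. Thrsp, a lipogenic nuclear protein, rose without overlap, with 660.1 to 1801 CPM (median 1379) under corticosterone and 171 to 561 CPM (median 343) under vehicle (1.91 ± 0.25).
Of 17 triglyceride synthesis genes, 9 rose, 3 fell and 5 did not pass (median 0.31). Dgat2, which makes the final acylation, rose (0.61 ± 0.08), as did the acyltransferase gene Agpat3 (0.93 ± 0.08), while Gpam, of the first acylation, fell (-0.99 ± 0.14). Of 25 lipolysis and lipid droplet genes, 9 rose, 7 fell and 9 did not pass (median 0.01). Plin5, the droplet coat that tethers mitochondria, had 126 to 251 CPM (median 196) with corticosterone and 24.7 to 94.8 CPM (median 45.6) with vehicle (1.98 ± 0.15). Plin2, the main coat of liver droplets, fell (-0.48 ± 0.13), and Mgll, the monoglyceride lipase, rose (1.01 ± 0.12). Pnpla2, which encodes ATGL, had 26.5 to 83.2 CPM (median 46.1) with corticosterone and 24.01 to 48.3 CPM (median 36.2) with vehicle (0.37 ± 0.15, adjusted p = 0.0338). Its call was lost in 7 of the 24 fits that left out 1 library (corticosterone replicate 32, 34, 35 or 45 or vehicle replicate 1, 2 or 9), with adjusted p up to 0.103.
Of 13 fatty acid uptake and binding genes, 4 rose, 3 fell and 6 did not pass (median 0.09), close to the 22.5% and 21.7% of all genes. Fabp1, the liver binding protein, fell (-0.70 ± 0.14) and the transporter gene Cd36 rose (0.97 ± 0.23). Fabp4, better known from adipocytes and macrophages, had 21.6 to 55.3 CPM (median 37.01) with corticosterone and 9.16 to 20.02 CPM (median 15.4) with vehicle (1.34 ± 0.16), without overlap. Of 20 genes of apolipoproteins and lipoprotein assembly, 9 rose, 4 fell and 7 did not pass (median 0.11). Apoa4 had 299 to 1375 CPM (median 433) with corticosterone and 35.6 to 151 CPM (median 55.02) with vehicle (3.06 ± 0.42), and Apoc3, an inhibitor of triglyceride clearance, rose (1.28 ± 0.15). Mttp, which loads lipid onto apolipoprotein B, rose (0.99 ± 0.10). Apob itself fell (-0.48 ± 0.15), a call lost without the 4 libraries with pancreatic transcripts (log2 fold change -0.42, adjusted p = 0.0546).
Of 34 genes of fatty acid oxidation, ketogenesis and PPARalpha, 16 rose, 7 fell and 11 did not pass (median 0.20). Ppara, the factor itself (-0.82 ± 0.13), and Cpt1a, the gatekeeper of mitochondrial entry (-0.43 ± 0.12), fell. The dehydrogenase gene Acadm (0.68 ± 0.10) rose. Cyp4a14, a microsomal fatty acid hydroxylase with near-identical relatives, rose (2.58 ± 0.38).

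Of 43 listed genes of amino acid breakdown, 15 rose, 8 fell and 20 did not pass (median 0.09), a share of called genes close to the 44.2% of all genes, and single members differed in direction. Bhmt, which remethylates homocysteine with betaine, had 1126 to 3384 CPM (median 2382) with corticosterone and 527 to 1106 CPM (median 823) with vehicle (1.59 ± 0.19), without overlap. Agxt, which detoxifies glyoxylate, had 28.3 to 71.0 CPM (median 48.4) with corticosterone and 83.996 to 218 CPM (median 131) with vehicle (-1.50 ± 0.16), also without overlap and in the other direction. Aass, of lysine breakdown (0.71 ± 0.12), and Gldc, of glycine cleavage (1.05 ± 0.18), rose, and Oat, which links ornithine and proline, fell (-0.67 ± 0.15). Of 8 urea cycle genes, 3 rose, 1 fell and 4 did not pass (median 0.18). Asl (1.07 ± 0.15), Arg1 (0.74 ± 0.13) and Cps1 (0.44 ± 0.12) rose, and Otc had 248 to 311 CPM (median 286) with corticosterone and 375 to 461 CPM (median 409) with vehicle (-0.54 ± 0.07). The fall of Otc, which joins carbamoyl phosphate to ornithine, left no overlap between groups.

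Drug metabolism genes targeted by the nuclear receptors CAR and PXR were mostly higher. Of 25 listed CAR and PXR targets, 14 rose, 2 fell and 9 did not pass (median 0.55). Cyp2b10, the classical CAR target, had 184 to 1645 CPM (median 498) with corticosterone and 2.47 to 13.8 CPM (median 6.37) with vehicle (6.35 ± 0.40), and the lowest corticosterone library was far above the highest vehicle library. Cyp3a11, the main PXR target (1.18 ± 0.13), Por, the reductase that feeds all microsomal P450s (1.38 ± 0.22), and Nr1i2, which encodes PXR (0.75 ± 0.12), rose. Sult1d1, a sulfotransferase gene, had 588 to 1265 CPM (median 804) with corticosterone and 66.2 to 203 CPM (median 104) with vehicle (3.03 ± 0.20). Of 8 targets of the aryl hydrocarbon receptor, 3 rose, 2 fell and 3 did not pass, and Cyp1a2 fell (-0.71 ± 0.20). Cyp2c, Cyp3a and Cyp4a genes have near-identical copies, so their values are uncertain.
Of 28 bile acid genes, 9 rose, 5 fell and 14 did not pass (median -0.07). Slc10a1, the sodium-dependent uptake carrier, had 327 to 779.5 CPM (median 547) with corticosterone and 163 to 321 CPM (median 244) with vehicle (1.14 ± 0.12), without overlap. The bile acid receptor gene Nr1h4 rose (0.81 ± 0.07), and Cyp39a1, an oxysterol hydroxylase, rose (2.70 ± 0.25). Cyp7a1, the rate-limiting enzyme of synthesis, had 7.21 to 289.7 CPM (median 42.99) with corticosterone and 15.1 to 165 CPM (median 100.4) with vehicle (-0.64 ± 0.34, adjusted p = 0.124). Its highest corticosterone value came from replicate 45, and without that library it fell (log2 fold change -1.17, adjusted p = 0.000556). It also passed without vehicle replicate 10 (log2 fold change -0.79, adjusted p = 0.0479) and in limma voom with sample weights (log2 fold change -1.18, adjusted p = 0.000753). Of 35 glutathione and NRF2 genes, 13 rose, 5 fell and 17 did not pass (median 0.12). Gclc, the rate-limiting enzyme of glutathione synthesis, had 83.96 to 194 CPM (median 134) with corticosterone and 271 to 419 CPM (median 301) with vehicle (-1.23 ± 0.11), with each corticosterone library below each vehicle library. The transferase gene Gstt3 rose (1.48 ± 0.16), whereas Nqo1, a common reporter of NRF2, moved little (0.45 ± 0.18, adjusted p = 0.0434) and lost its call without the mice labelled diabetic (log2 fold change 0.10, adjusted p = 0.766), in the 24 control-diet libraries alone (log2 fold change 0.43, adjusted p = 0.136) and in limma voom (log2 fold change 0.28, adjusted p = 0.221). Its call was also lost in 12 of the 24 fits that left out 1 library, namely corticosterone replicate 29, 30, 35, 36, 37, 45, 49 or 50 or vehicle replicate 1, 9, 10 or 15, with adjusted p up to 0.123.

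In these male mice, genes known as female-biased in mouse liver mostly rose, and male-biased genes fell more often than they rose. In rodents the pulsatile growth hormone of males acts through STAT5 to set these genes. Of 21 tested female-biased genes, 11 rose, 4 fell and 6 did not pass (median 1.44), and of 29 male-biased genes, 2 rose, 13 fell and 14 did not pass (median -0.56). Sult1e1 and Cyp17a1, whose levels are given above, belong to the female-biased list, as does Cyp2c69, with 14.2 to 113 CPM (median 33.2) under corticosterone and 1.59 to 7.88 CPM (median 2.48) under vehicle (3.83 ± 0.48). On the male-biased side, Nudt7, a peroxisomal hydrolase of coenzyme A, had 43.2 to 242 CPM (median 108) with corticosterone and 375 to 793 CPM (median 544) with vehicle (-2.23 ± 0.25), without overlap. The urinary pheromone carrier gene Mup17 fell to 2.04 to 116 CPM (median 31.8) with corticosterone, against 146 to 2783 CPM (median 753) with vehicle (-4.59 ± 0.53), while Mup20, the carrier called darcin, rose to 393 to 5644 CPM (median 2614), against 517 to 1766 CPM (median 962) with vehicle (1.44 ± 0.27). Mup genes are near-identical copies, so reads may be split among them. Of 18 genes of the growth hormone axis, 3 rose, 5 fell and 10 did not pass (median -0.12). Ghr, the receptor, had 176 to 322 CPM (median 252) with corticosterone and 324 to 437 CPM (median 383) with vehicle (-0.64 ± 0.10), without overlap. Igf1, its main endocrine product, had 942 to 1442 CPM (median 1156) with corticosterone and 873 to 1342 CPM (median 1156) with vehicle (0.05 ± 0.09, adjusted p = 0.699). Igfbp2, a binding protein of that product, fell (-2.41 ± 0.36).
By position in the lobule, 11 of 20 periportal genes rose and 2 fell (median 0.33), and 5 of 22 pericentral genes rose and 7 fell (median 0.05). Glul, the glutamine synthetase of the last pericentral cell layers, rose (0.81 ± 0.17) and Cyp2e1 did not pass (-0.32 ± 0.22, adjusted p = 0.233). The Wnt-responsive genes Axin2 (0.87 ± 0.15) and Lgr5 (-1.14 ± 0.19) moved in opposite directions. On the periportal side, Cdh1, the epithelial cadherin, fell (-1.70 ± 0.25).

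Genes of secreted plasma proteins were called in both directions. Of 28 acute phase genes, 13 rose, 6 fell and 9 did not pass (median 0.13). Lbp, which binds bacterial lipopolysaccharide, had 99.5 to 194 CPM (median 141) with corticosterone and 42.4 to 83.2 CPM (median 56.8) with vehicle (1.27 ± 0.10), without overlap. The haemoglobin scavenger gene Hp had 1902 to 6923 CPM (median 3027) with corticosterone and 831 to 2767 CPM (median 1212) with vehicle (1.17 ± 0.17). Orm3, an acid glycoprotein gene with close copies, rose (3.57 ± 0.36). Saa1, serum amyloid, ranged over 7.39 to 766 CPM (median 45.4) with corticosterone and 24.1 to 807 CPM (median 41.2) with vehicle (0.21 ± 0.66, adjusted p = 0.828), the largest spread within a group among the acute phase genes named here. Of 26 complement and lectin genes, 3 rose, 11 fell and 12 did not pass (median -0.20). The classical initiator genes C1qa (-1.36 ± 0.16) and C1qb (-1.37 ± 0.16), which macrophages make, fell, and C4bp, a complement inhibitor of hepatocytes, rose (0.82 ± 0.10). Of 28 coagulation genes, 4 rose, 11 fell and 13 did not pass (median -0.11), with F9 higher (0.70 ± 0.08) and F5 lower (-0.49 ± 0.11).
Of 24 iron and metal genes, 10 rose, 2 fell and 12 did not pass (median 0.21). Hamp, the iron hormone hepcidin, had 166 to 1011 CPM (median 506) with corticosterone and 349.9 to 1323 CPM (median 740.3) with vehicle (-0.43 ± 0.24, adjusted p = 0.139), whereas the ferritin gene Fth1 rose without overlap, with 1278 to 3290.5 CPM (median 1843) under corticosterone and 918 to 1268 CPM (median 1065) under vehicle (0.87 ± 0.11). Of 24 hepatokine genes, 11 rose, 8 fell and 5 did not pass (median 0.31). Tsku had 41.6 to 117 CPM (median 77.2) with corticosterone and 5.92 to 40.9 CPM (median 16.1) with vehicle (2.14 ± 0.24). Its rise left no overlap. Fgf21, the fasting hormone, was low in absolute terms, with 0.180 to 10.8 CPM (median 3.47) under corticosterone and 0 to 0.580 CPM (median 0.173) under vehicle (4.08 ± 0.68), and Inhba, an activin subunit, rose (1.51 ± 0.21).

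All 39 tested interferon-induced genes fell, 31 of them at least 2-fold and 29 without overlap between the groups, where 21.7% of all genes fell, and their median log2 fold change was -1.74. Many such genes carry an interferon-stimulated response element near their start. Its core, searched as GAAANNGAAA on both strands, was in 18 of the 29 listed genes with a promoter window (62.1%), against 3.82% of 9649 genes tested. Among genes at least 2-fold lower it was in 11.4% of 519, or 9.27% of 496 outside the list, and among genes at least 2-fold higher in 2.88% of 278. Windows of 3 of these genes follow, Ifit1 (chr19:34640639-34640938), Isg15 (chr4:156200769-156201068) and Rsad2 (chr12:26456403-26456702), on the strand of the gene, with the matches in capitals. They were chosen to show 2 separate matches, 3 overlapping ones and 1.
Ifit1: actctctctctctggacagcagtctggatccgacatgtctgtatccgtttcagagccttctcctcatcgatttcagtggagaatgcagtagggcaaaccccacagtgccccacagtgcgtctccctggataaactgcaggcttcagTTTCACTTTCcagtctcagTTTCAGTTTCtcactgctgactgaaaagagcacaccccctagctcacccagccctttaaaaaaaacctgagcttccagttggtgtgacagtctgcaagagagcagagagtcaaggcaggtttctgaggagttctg
Isg15: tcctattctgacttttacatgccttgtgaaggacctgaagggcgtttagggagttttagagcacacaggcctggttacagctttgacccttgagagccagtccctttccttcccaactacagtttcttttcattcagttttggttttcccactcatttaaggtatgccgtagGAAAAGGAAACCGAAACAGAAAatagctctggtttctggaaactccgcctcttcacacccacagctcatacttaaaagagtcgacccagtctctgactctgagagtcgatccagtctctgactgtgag
Rsad2: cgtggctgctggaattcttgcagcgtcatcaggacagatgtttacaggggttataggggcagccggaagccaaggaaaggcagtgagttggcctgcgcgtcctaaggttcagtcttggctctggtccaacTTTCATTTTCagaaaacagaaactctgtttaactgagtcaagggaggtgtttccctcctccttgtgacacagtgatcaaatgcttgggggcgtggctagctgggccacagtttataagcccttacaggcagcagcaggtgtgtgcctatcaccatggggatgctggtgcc
Ifit1, which binds viral RNA caps, had 1.28 to 3.65 CPM (median 2.16) with corticosterone and 8.21 to 25.98 CPM (median 17.7) with vehicle (-2.88 ± 0.33, adjusted p = 7.08e-10). Isg15, a ubiquitin-like modifier, had 3.09 to 8.65 CPM (median 4.55) with corticosterone and 13.1 to 26.1 CPM (median 15.7) with vehicle (-1.76 ± 0.24). Rsad2, the antiviral enzyme viperin, had 2.14 to 6.60 CPM (median 3.58) with corticosterone and 15.1 to 38.8 CPM (median 21.3) with vehicle (-2.55 ± 0.38). In each of these 3 the corticosterone libraries all lay below the vehicle libraries. The chemokine gene Cxcl9 had 0.696 to 1.62 CPM (median 1.04) with corticosterone and 9.54 to 47.1 CPM (median 14.4) with vehicle (-4.05 ± 0.31). The signal factors Irf9, of the complex that binds the element (-1.46 ± 0.13), and Irf8, of myeloid cells (-1.74 ± 0.15), fell too. In bulk tissue, fewer cells of a type and less RNA per cell cannot be told apart, for these genes and for those of the immune cells described next, and the part of immune cell markers in the interferon and antigen presentation values was not tested.

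All 7 tested genes of MHC class II presentation fell at least 2-fold and without overlap (median -3.79). H2-Ab1 had 0.817 to 5.05 CPM (median 3.40) with corticosterone and 29.02 to 82.5 CPM (median 42.1) with vehicle (-3.83 ± 0.24), and H2-Aa, its partner chain, had 0.525 to 7.88 CPM (median 5.14) with corticosterone and 52.9 to 137 CPM (median 78.7) with vehicle (-4.11 ± 0.29). The loading factor gene H2-DMb1 (-3.56 ± 0.29) and the invariant chain gene Cd74 (-3.79 ± 0.27) fell with them. Of 18 genes of class I presentation, which hepatocytes also use, 13 fell, 0 rose and 5 did not pass (median -0.57), and 2 fell at least 2-fold. Among them the transporter gene Tap1 (-0.99 ± 0.14) and the immunoproteasome gene Psmb10 (-0.90 ± 0.09) fell, and H2-Q7 had 9.63 to 28.9 CPM (median 20.2) with corticosterone and 45.2 to 94.004 CPM (median 73.2) with vehicle (-1.80 ± 0.13).
Markers of the immune cells fell. Of 19 tested markers of Kupffer cells and macrophages, 15 fell, all of them at least 2-fold, 1 rose and 3 did not pass (median -1.25), and their summed level was 202 to 351 CPM with corticosterone and 409 to 714 CPM with vehicle. Clec4f, the Kupffer cell lectin, had 12.3 to 21.4 CPM (median 16.1) with corticosterone and 30.6 to 44.999 CPM (median 37.4) with vehicle (-1.19 ± 0.12). Timd4, of long-resident Kupffer cells (-1.92 ± 0.17), and Adgre1, the F4/80 antigen (-1.56 ± 0.19), fell as well. Of 8 tested T, B and NK cell markers, 7 fell, all at least 2-fold, and 1 did not pass, with a summed level of 5.57 to 33.5 CPM with corticosterone and 24.7 to 60.03 CPM with vehicle. The B cell gene Cd79b had no read in most corticosterone libraries, with 0 to 0.196 CPM (median 0), against 0.156 to 1.38 CPM (median 0.934) with vehicle, and Trac, the T cell receptor alpha constant gene, fell (-2.79 ± 0.35). Of 13 pan-leukocyte and myeloid genes, 11 fell, all at least 2-fold, and 2 did not pass, and Ptprc, the leukocyte antigen CD45, had 0.738 to 2.62 CPM (median 1.75) with corticosterone and 5.31 to 13.7 CPM (median 8.46) with vehicle (-2.39 ± 0.18).
For other cell types of the liver the calls varied. Of 23 sinusoidal endothelial markers, 9 fell, 1 rose and 13 did not pass (median -0.21), and their summed level was 353 to 504 CPM with corticosterone and 507 to 626 CPM with vehicle. Kdr, a receptor of vascular growth factor (-0.88 ± 0.09), fell, and Stab2, a scavenger receptor of these cells, did not pass (-0.12 ± 0.10, adjusted p = 0.356). Of 24 stellate cell and fibroblast markers, 12 fell, 2 rose and 10 did not pass (median -0.41), and Col3a1 had 2.79 to 7.57 CPM (median 4.61) with corticosterone and 11.4 to 27.4 CPM (median 16.7) with vehicle (-1.77 ± 0.17). Of 6 cholangiocyte markers, 1 rose and 2 fell, and of 5 adipocyte markers, 1 rose and 1 fell. Of 7 erythroid markers, 5 rose and 0 fell (median 0.60), with a summed level of 923 to 3777 CPM under corticosterone and 974 to 2844 CPM under vehicle. Of 10 hepatocyte markers, 3 rose and 2 fell (median 0.04), while none of 10 pancreatic markers and not the 1 mesothelial marker passed.

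**Figure D4:**
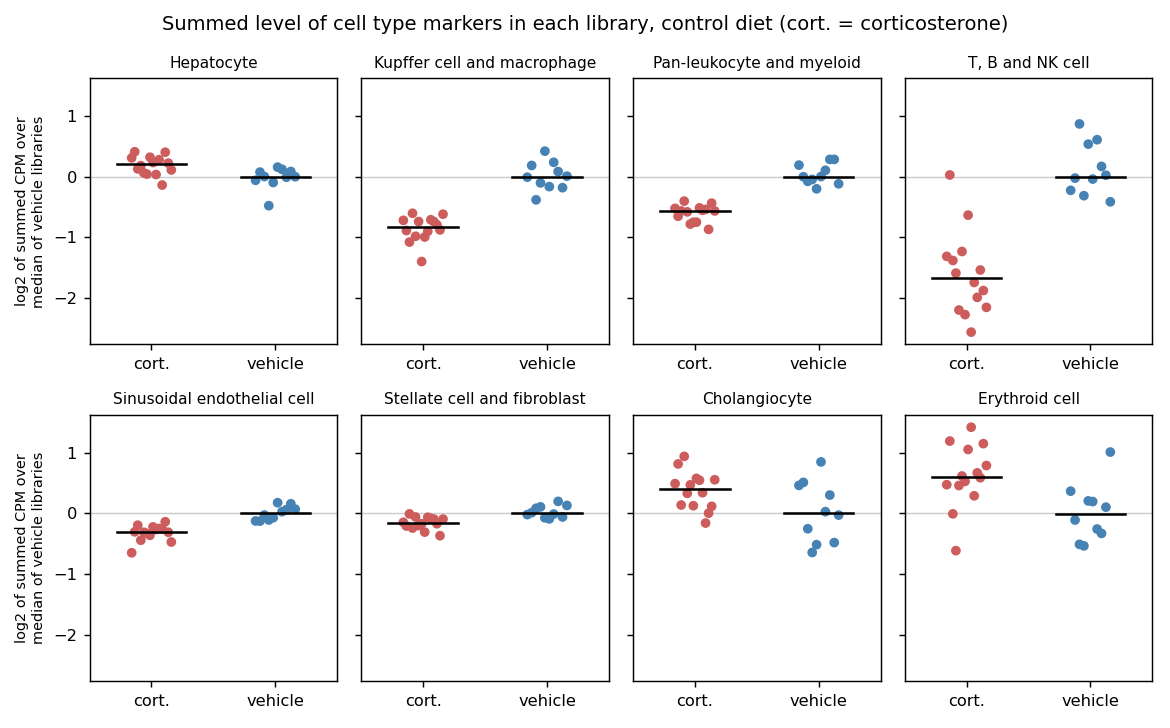
Summed CPM of the markers of 8 cell types in each library, divided by the median of the vehicle libraries and drawn on a log2 axis, with corticosterone libraries left of vehicle libraries. Bars are medians. The macrophage sums do not overlap (202 to 351 CPM with corticosterone, 409 to 714 CPM with vehicle), whereas the hepatocyte sums do.

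Of 22 clock genes, 12 rose, 1 fell and 9 did not pass (median 0.46), where 22.5% of all genes rose. Per2, a repressor of the core loop, had 8.18 to 22.9 CPM (median 15.1) with corticosterone and 2.39 to 9.22 CPM (median 5.92) with vehicle (1.21 ± 0.20), and Per1, its relative and a receptor target, rose (0.96 ± 0.26). Arntl, which drives the loop (0.25 ± 0.22, adjusted p = 0.377), and Dbp, one of its strongest outputs (-0.64 ± 0.42, adjusted p = 0.227), did not pass. The deubiquitinase gene Usp2, a clock output, had 26.9 to 122 CPM (median 60.7) with corticosterone and 3.32 to 38.5 CPM (median 5.48) with vehicle (2.78 ± 0.41). The labels give no hour of collection, so its part in these values was not tested.
Of 26 immediate early genes, 4 rose, 8 fell and 14 did not pass (median -0.31), against 22.5% higher and 21.7% lower over all genes. Egr1, a growth factor response gene, had 0.451 to 4.75 CPM (median 2.49) with corticosterone and 13.4 to 216 CPM (median 42.4) with vehicle (-4.43 ± 0.58), without overlap, and Klf10 rose (2.40 ± 0.27). Of 23 cell cycle genes, 4 rose, 9 fell and 10 did not pass (median -0.23). Ccnd1, the cyclin of early G1, had 5.10 to 12.7 CPM with corticosterone and 21.4 to 49.2 CPM with vehicle (-2.12 ± 0.52), without overlap, and the replication helicase gene Mcm3 fell (-1.28 ± 0.24), against the rise of Rrm2. Of 22 p53 target genes, 7 rose, 3 fell and 12 did not pass (median 0.27). Apart from Cdkn1a, which the receptor list also holds, Ccng2 rose (0.78 ± 0.14), Bbc3 fell (-1.30 ± 0.22) and Trp53 itself did not pass (-0.16 ± 0.16, adjusted p = 0.462).
Of 36 endoplasmic reticulum stress and heat shock genes, 9 rose, close to the share of all genes, 2 fell and 25 did not pass (median 0.06). Dnajc3, a chaperone of the secretory pathway, rose (0.48 ± 0.08). The heat shock gene Dnajb1 was called lower (-1.73 ± 0.45), with 17.9 to 58.3 CPM (median 21.8) under corticosterone and 11.8 to 722 CPM (median 18.8) under vehicle. This call came from vehicle replicate 10, at 722 CPM, and without that library Dnajb1 was higher with corticosterone (log2 fold change 0.52, adjusted p = 0.0193). Of 57 ribosomal protein genes, 2 rose, 8 fell and 47 did not pass (median -0.04). Of 59 oxidative phosphorylation genes, 20 rose, 2 fell and 37 did not pass (median 0.16), none by 2-fold, with Ndufa8 of complex I among the higher ones (0.62 ± 0.09).

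The corticosterone group was uneven for many of its own induced genes. Of the 384 genes at least 2-fold higher, replicate 45 was the highest corticosterone library for 97 and replicate 35 for 82, while replicate 29 was the lowest for 58 and replicate 50 for 60. Replicate 45 held the highest corticosterone values of Cyp2b10 (1645 CPM), Cyp3a11, Cyp17a1, Hp, Tat and Cyp7a1 and the lowest of Obp2a and Mup17. The labels split the group by disease state, and the medians of the diabetic and the nondiabetic mice were 855 and 516 CPM for G6pc, 1481 and 830.5 CPM for Pck1, 299 and 317 CPM for Fkbp5, and 104 and 52.9 CPM for Sult1e1, differences that were not tested. Without the 9 diabetic mice, 3614 genes were called, and 3432 of the 5606 calls (61.2%) kept their call and direction, with 5 corticosterone libraries in place of 14. With that smaller group, 11 of the genes named here lost their call, with adjusted p between 0.0614 and 0.766, and all 11 kept their sign. The log2 fold changes without these mice, set against those in all mice, were 0.27 against 0.34 for Alb, -0.22 against -0.28 for Apoe, -2.04 against -2.12 for Ccnd1, -1.43 against -1.73 for Dnajb1, 0.25 against 0.31 for Mdm2 and 0.30 against 0.37 for Pnpla2. They were 0.70 against 0.96 for Per1, -0.42 against -0.71 for Cyp1a2, -0.52 against -0.89 for Serpina1e, 0.44 against 0.97 for Cd36 and 0.10 against 0.45 for Nqo1. Cyp7a1 fell in that fit (log2 fold change -1.93, adjusted p = 3.05e-05). Without the 4 libraries with pancreatic transcripts, Apob, Igfbp1, Nqo1, Pnpla2 and Serpina1e lost their call, with adjusted p between 0.0546 and 0.464, Dnajb1 turned positive, and Saa1 rose (log2 fold change 1.96, adjusted p = 0.033).

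The same contrast on the atglistatin diet used other mice, 14 on corticosterone and 10 on vehicle, so the difference between the diets could be tested gene by gene. Of 12688 genes, 181 passed (1.43%), 76 without the mice labelled diabetic (9 on the control diet and 1 on the atglistatin diet) and 64 without the libraries with Cpa1 above 20 CPM, and 3566 genes were called in the same direction on both diets. Of the 28 cholesterol genes 17 passed the test of the difference, and the list's median log2 fold change was -1.35 on the control diet and -0.21 on the atglistatin diet. Hmgcs1 fell by 2.04 on the control diet, with a value of -0.36 ± 0.18 on the atglistatin diet (difference -1.68 ± 0.26, adjusted p = 4.91e-05). For Fdft1 the difference was -1.48 ± 0.20, for Pmvk -1.22 ± 0.21 and for Sc5d -0.95 ± 0.16, each time with the lower value on the control diet. Fkbp5 rose further on the control diet than the 3.39 ± 0.25 on the atglistatin diet (difference 1.63 ± 0.32, adjusted p = 0.00175). The difference was 3.01 ± 0.48 for Orm3 and 1.20 ± 0.22 for Oat. For Oat that meant a fall of smaller size on the control diet, where its value was -0.67, against -1.87 ± 0.15 on the atglistatin diet. Of the 22 p53 targets 9 differed, each with the lower value on the control diet, as for Mdm2, the p53 ubiquitin ligase (0.31 ± 0.10 on the control diet, 1.31 ± 0.10 on the atglistatin diet). Of the 21 female-biased genes 5 differed. Their list's median was 1.44 on the control diet and -0.34 on the atglistatin diet, where 6 rose and 7 fell. None of the 7 MHC class II genes and 1 of the 39 interferon genes passed the test of the difference, which does not show equal effects. The medians on the control and the atglistatin diet were -3.79 and -3.58 for MHC class II and -1.74 and -1.15 for the interferon genes.

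**Figure D5:**
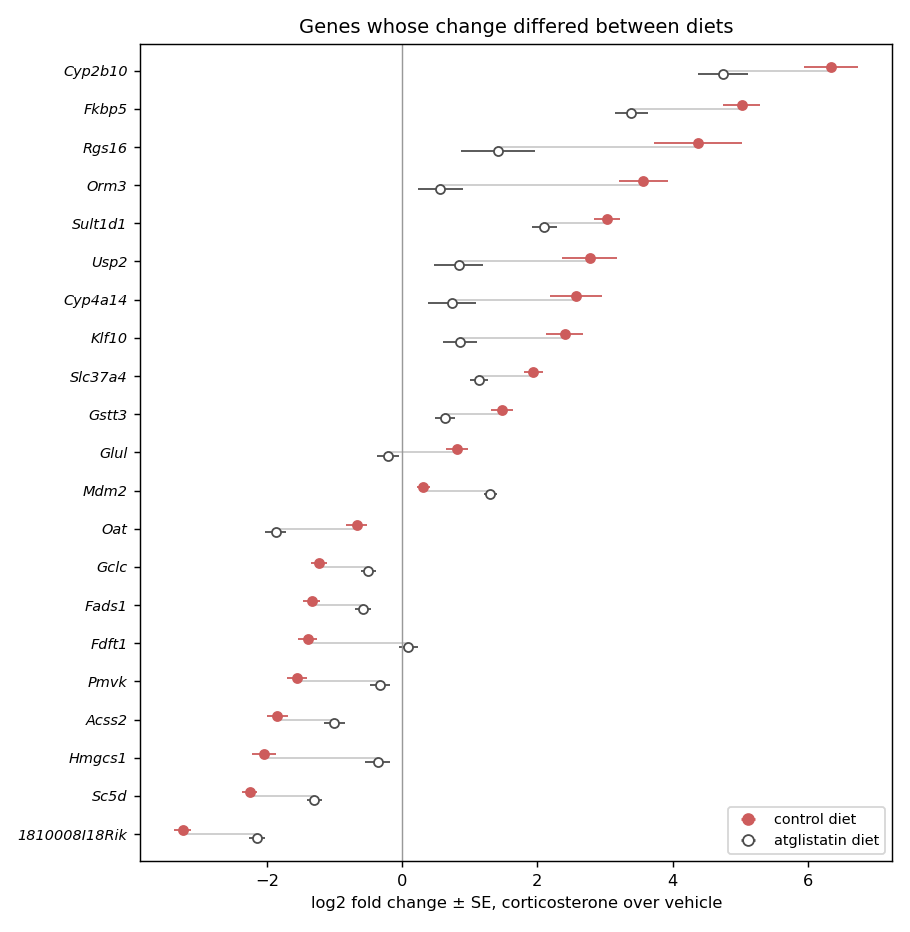
Log2 fold change, corticosterone over vehicle, on the control diet (filled points) and on the atglistatin diet (open points) with SE bars, for the genes named in the text whose change differed between diets at an adjusted p of at most 0.05. The cholesterol genes shown had lower values on the control diet (Hmgcs1 -2.04 against -0.36), and Fkbp5 rose further there (5.02 against 3.39). Without the libraries above 20 CPM of Cpa1, 11 of the 21 genes shown were no longer called.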

How the data were processed

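Liver RNA of 48 mice was read by QuantSeq with 50-base reads, and 24 libraries entered the comparison described. The deposited count table holds raw read counts per gene for 14251 genes, each with at least 144 reads over all libraries. No aligner and no strand setting is given in the sources used here. The submitters' processing notes name GRCm38, R 3.6 and DESeq2 1.24.0. The authors' deposited normalized signal equals these counts divided by 1 factor per library (largest deviation 5.33e-15), so it served for gene symbols and this check. Without strand, overlapping genes cannot be told apart, and Mup, Saa, Orm, Cyp2c, Cyp3a, Cyp4a, Gstm, Acot, Hba and Serpina genes have near-identical copies that make their values uncertain. Nothing in the labels says that the samples of a group came from separate cages or days, so p-values measure the spread between these samples.

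Counts were filtered with filterByExpr (minimum count 10, minimum total 15), scaled by TMM and fitted in edgeR 4.0.16 (R 4.3.3) with 4 group means over all 48 libraries, by the quasi-likelihood F test with Benjamini-Hochberg adjustment over 12688 genes at 0.05. The difference between diets was tested in the same fit. Alternatives were RLE scaling, no filter, the 24 libraries alone, no mice labelled diabetic, no libraries above 20 CPM of Cpa1, DESeq2 1.42.0, limma 3.58.1 voom with sample weights, and leaving out each control-diet library. On simulated counts (12533 genes) the test recovered 73.1%, 90.9% and 100% of genes changed 1.5-fold, 2-fold and 4-fold, with 4.4% false calls. For the difference between diets (12556 genes) it recovered 53.8%, 71.6% and 95.4%, with 5.84% false calls. The simulated counts were negative binomial draws in which few genes were changed and no library was made outlying. The data differ in this, so these rates need not hold for the calls reported. Glucose and insulin were compared by permutation of the mice.

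The samples, the 50 gene lists and the named genes were chosen with earlier results of these data known. Named genes were the 20 highest and 20 lowest fold changes among called genes of at least 5 CPM, the 10 largest rises and falls in CPM, up to 6 members of each list by p-value, and a preset list; the text describes 170 of them, and some that the rule names are not reported here. Promoter sequences are RefSeq's for GRCm38.p6, and gene positions are GENCODE M21's.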

Additional observations from a re-analysis of the deposited data

Results flagged for a closer look

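Among 172 genes and mouse measures named in the report, 28 had 1 vehicle library far from the other 9, by the gap to its nearest neighbour over the whole range of the group (Dixon's 95% limit). Chance alone gives about 1 in 20 for independent values with a normal distribution. The limit was applied here to untransformed CPM of genes that can vary together, so the 28 cannot be set against that share. The 14 corticosterone libraries were not tested in this way. Vehicle replicates 12, 10 and 9 held 21 of the 28 values.

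Vehicle replicate 12 stood apart for 9 genes, in CPM 3893 for Apoc3, 11.1 for Cyp39a1, 1.15 for Fam107a, 419 for Gclc, 148 for Mttp, 4.10 for Rrm2, 203 for Sult1d1, 40.9 for Tsku and 38.5 for Usp2. Each of these was the group's highest level. Vehicle replicate 10 was the highest for 6 genes, in CPM 151 for Apoa4, 722 for Dnajb1, 216 for Egr1, 870.3 for Igfbp1, 37.9 for Mdm2 and 257 for Mt2. Vehicle replicate 9, whose pancreatic transcripts are given above, stood apart for 6 genes, in CPM 71.4 for C1qa, 344 for C4bp, 54.3 for Cyp17a1, 1.70 for Myom3, 807 for Saa1 and 7.32 for Scara5. Vehicle replicate 4 did so for Gadd45b (2.40 CPM), Klf10 (25.5 CPM) and Trac (1.82 CPM), and vehicle replicate 3 for Cxcl9 (47.1 CPM) and Isg15 (26.1 CPM). Vehicle replicate 2 held the lowest albumin level (Alb, 49774 CPM) and vehicle replicate 11 the highest of Cyp2c69 (7.88 CPM).

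For 21 of the named genes the corticosterone effect differed between the diets in edgeR's test of the difference itself. The log2 difference, control diet minus atglistatin diet, was positive for Orm3 (3.01), Rgs16 (2.96), Usp2 (1.94), Cyp4a14 (1.83), Fkbp5 (1.63), Cyp2b10 (1.60), Klf10 (1.54), Oat (1.20), Glul (1.03), Sult1d1 (0.93), Gstt3 (0.84) and Slc37a4 (0.80). It was negative for Hmgcs1 (-1.68), Fdft1 (-1.48), Pmvk (-1.22), 1810008I18Rik (-1.10), Mdm2 (-0.99), Sc5d (-0.95), Acss2 (-0.84), Fads1 (-0.76) and Gclc (-0.73). Leaving out 1 control-diet library gave 24 fits. Calls were lost in 16 for Cyp2b10, 12 for Usp2, 11 for Acss2, 10 for Rgs16, 9 for Cyp4a14 and 8 for Sult1d1. Adjusted p reached 0.0828 in these fits, while each difference kept its sign. Without the libraries above 20 CPM of Cpa1, 11 of these differences lost their call, with adjusted p between 0.0512 and 0.315. They were those of Cyp2b10, Cyp4a14, Fads1, Gclc, Glul, Gstt3, Klf10, Rgs16, Slc37a4, Sult1d1 and Usp2.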

How the results depend on the processing

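The 5606 calls became 5602 with RLE scaling, 5916 with no filter, 4989 from the 24 libraries alone, 5994 with DESeq2 and 5905 with limma voom, and between 5277 and 5618 when 1 library was left out. Without the mice labelled diabetic, which leaves 5 corticosterone libraries on the control diet, 3614 genes were called, 1617 of them higher (2858 in all mice). The glucose difference was then 26.2 (exact permutation test, p = 0.0706) in place of 111. The mice left out held the highest glucose values of the corticosterone group (254 to 407, against 131 to 242). The glucose difference therefore had to shrink, and this fit cannot test it. The 181 differences between diets became 76 without the mice labelled diabetic, 64 without the libraries above 20 CPM of Cpa1, 359 with voom, and between 129 and 232 when 1 library was left out. Dnajb1 turned positive, at 0.61 without the Cpa1 libraries, 0.49 with DESeq2, 0.28 with voom and 0.52 without vehicle replicate 10, the highest of -1.88 to 0.52 when 1 library was left out. Of the 170 named genes, 153 kept direction and side of the threshold under every alternative that gave them a value, as did 9 of the 21 diet differences. A gene without a value in an alternative was counted as kept there. In the 24 libraries alone, 166 genes had the same verdict and 1 lost its call. Of the other 12 diet differences, 10 were no longer called without the diabetic mice and 11 without the Cpa1 libraries. The causes were not tested. The insulin difference stayed between 28.6 and 31.0 when 1 mouse was left out. No paired analysis was possible because the corticosterone and vehicle libraries share no replicate number. Depth limits the genes near 1 CPM and below, where the lowest library total (7449109) leaves few reads.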
